A study of Mus musculus with 8 samples.

Results

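The genes described here encode the subunits of somatodendritic A-type potassium channels, and they were taken as the rows of the deposited comparison table whose symbol is Kcnd2, Kcnd3, Kcnip1, Kcnip2, Kcnip3, Kcnip4, Dpp6 or Dpp10. All 8 were found, of 26229 genes in the table, and all 8 were among the 18085 genes with an adjusted p. Kcnip1 was chosen by its fold change in this comparison, where it was lower in the knockout, so that fold change is given as a description without a test. The other members were added as its channel partners. PolyA RNA was sequenced from cortical neurons that had been taken from mouse embryos at E16.5 and kept in primary culture for 12 days. The knockout group was 4 libraries with the genotype H2BE-KO/mCherry-KI, a knockout of the histone H2B variant H2BE (gene H2bc21) that also carries an mCherry knock-in, and the control group was 4 WT libraries. The labels call the libraries biological replicates and do not say whether each came from 1 embryo or from a pool, nor name the strain, sex or culture medium.

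A-type channels open below the firing threshold and inactivate within milliseconds, and in pyramidal dendrites they damp excitatory inputs and back-propagating spikes. The pore is a tetramer of Kv4 proteins, encoded by Kcnd genes. Cytosolic KChIP proteins, calcium-binding proteins of the neuronal calcium sensor family encoded by Kcnip genes, bind the Kv4 amino terminus and raise surface expression, and DPP6 and DPP10, membrane proteins that resemble peptidases but lack peptidase activity, speed gating. In rodent hippocampus and cortex, KChIP1 is known from GABAergic interneurons and KChIP2 from pyramidal cells. KChIP3 also has a nuclear form, the transcriptional repressor DREAM.

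The 4 Kcnip genes are paralogs, so the stretch in which their coding sequences are most alike is shown first, because it bears on whether reads of these genes could be confused. It is the 60-base window within a single exon of each gene that had the most identical bases in an alignment of the longest coding sequences, read from the GENCODE M21 transcripts of GRCm38. Bases in capitals are positions at which the 4 genes are not all the same, and all 4 genes lie on the minus strand. The windows are chr11:33634624-33634683, chr19:45794244-45794303, chr2:127460028-127460087 and chr5:48396696-48396755, in the order of the lines.
Kcnip1: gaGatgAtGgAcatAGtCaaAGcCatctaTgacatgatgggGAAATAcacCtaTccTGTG
Kcnip2: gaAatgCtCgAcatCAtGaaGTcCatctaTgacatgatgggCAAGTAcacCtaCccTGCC
Kcnip3: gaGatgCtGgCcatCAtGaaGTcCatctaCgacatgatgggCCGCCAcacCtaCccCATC
Kcnip4: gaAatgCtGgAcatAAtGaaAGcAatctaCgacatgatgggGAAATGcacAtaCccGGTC

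Even in this window, 37 of 60 positions were identical in all 4 genes and 23 differed. Over the whole alignment, 49.6% of the ungapped positions were identical in all 4, and with gapped columns included the share was 3.40% in the first part of the alignment, 52.0% in the middle and 58.5% at the end, each counted over all columns of 3 equal parts. The variable start of the coding sequence thus stood against a conserved remainder. Between any 2 Kcnip genes, coding identity lay between 70.4% and 72.4%. It was 73.9% for Kcnd2 and Kcnd3 and 63.5% for Dpp6 and Dpp10. No stretch of 50 bases in the annotated transcripts of any member occurred in another member, in either orientation. For Kcnip1, Kcnip2 and Kcnd2 no such stretch occurred in a transcript of any other gene, and the shared part was at most 3.49%, in Kcnip4, among the rest. In Dpp10 (3.07%) and Dpp6 (0.438%) the shared stretches occurred in 398 and 178 other genes, so reads there may not be unique to them. In Kcnip4 the shared part came from the opposite-strand genes 5730480H06Rik and Gm20700, and in Kcnd3 (1.21%) from its antisense gene Kcnd3os. The library kit was a stranded one per the labels, but the use of strand in counting is not given in the sources used here, so reads in those overlaps are uncertain. Kcnd3os had a mean normalized count of 11.8, against 5303 for Kcnd3, and 5730480H06Rik one of 223, against 556 for Kcnip4. Kcnmb1, a potassium channel subunit gene, overlaps the Kcnip1 locus on the opposite strand, shares no exon base with it and had a mean of 2.31.

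The direction of all fold changes was read from the targeted gene, since the header of the table names none. H2bc21 was at 185 normalized counts in the knockout and 2033 in WT, as implied by the authors' deposited table (log2 fold change -3.45, SE 0.19, DESeq2 adjusted p = 4.49e-68), or 9.12% of the WT level. With the opposite sign, all directions given here would be reversed. Depth per library is unknown, because the table holds 1 mean per gene over all 8 libraries and no value per library, so no spread of single libraries can be shown and overlap between the groups cannot be read. The SE of each fold change carries the spread between the 4 and 4 replicates. Where a level in a group is given, it was computed from the deposited mean over all libraries and the deposited fold change, and is called implied.

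Among the 7 members other than Kcnip1, Kcnip2 rose in the knockout at an adjusted p under 0.05 and 6 did not pass. Kcnip1, chosen by its lower value in this table, is given as a description only. Over all tested genes 21.8% passed, 11.0% higher and 10.9% lower. Since the members were assembled with results of this comparison known, nothing is read from the count. The median log2 fold change of all 8 members, Kcnip1 included, was -0.04, against -0.02 for all tested genes, with 5 members below 0 and 3 above.

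**Figure D1:**
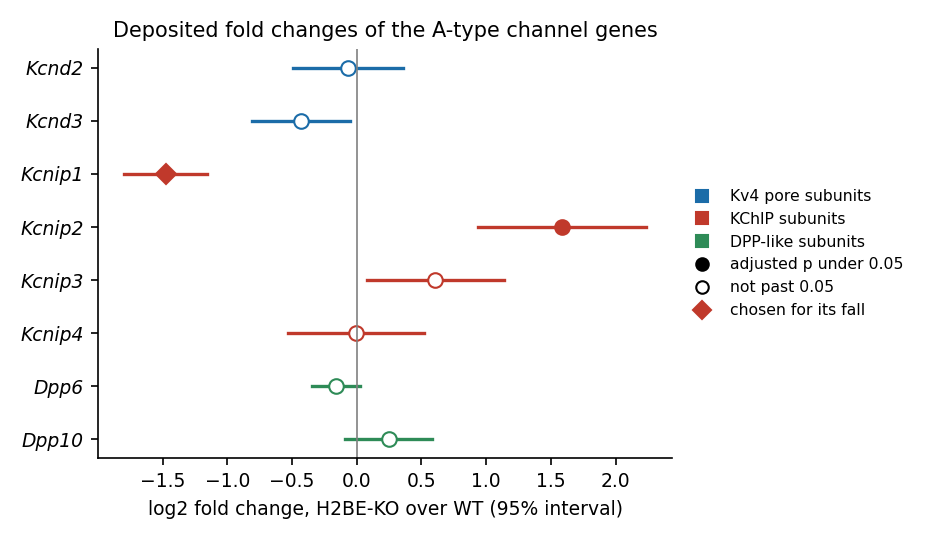
Log2 fold change of each A-type channel gene, H2BE-KO over WT (x axis), from the authors' deposited table. Points are estimates from 4 and 4 libraries, bars are 95% intervals from the deposited SE, and filled points had a deposited adjusted p under 0.05. The diamond marks Kcnip1, which is filled by the same rule but was chosen for its fall, so its fill is not read as a test. Kcnip2 lies at 1.59 and Kcnip1 at -1.48, and the remaining members lie between -0.43 and 0.61.

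Kcnip1, the gene of KChIP1 (ENSMUSG00000053519, chromosome 11 from 33629339 to 33993152 in GRCm38, minus strand), had an implied level of 1486 normalized counts in the knockout and 4134 in WT. In the authors' deposited table its log2 fold change stood at -1.48, with an SE of 0.16 and a 95% interval from -1.79 to -1.16. The knockout level was 35.9% of WT, with an interval from 28.8% to 44.8%.

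Kcnip2, the gene of KChIP2 (ENSMUSG00000025221, chromosome 19 from 45791839 to 45816061, minus strand), rose in the knockout. Its implied level was 1199 normalized counts in the knockout and 399 in WT. This was a 3.01-fold difference, 1.59 on the log2 scale in the authors' deposited table (SE 0.33, DESeq2 adjusted p = 4.1e-05), with a 95% interval from 0.94 to 2.24. Its SE was wide for its level, since 95.5% of the 2295 tested genes within 1.5 times of its mean count had a smaller SE, with a median of 0.153. The adjusted p was 0.356 when the spread of the test statistic was taken from all tested genes. It was 0.074 when a t distribution (6 degrees of freedom) replaced the normal distribution of the deposited test. No member, and no gene of the lists below, passed with that t distribution, while H2bc21 did.

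Kcnip3, the gene of KChIP3 (ENSMUSG00000079056, chromosome 2 from 127456498 to 127522094, minus strand), had an implied level of 1886 normalized counts in the knockout and 1236 in WT. Its log2 fold change in the authors' deposited table was 0.61 (SE 0.27, DESeq2 adjusted p = 0.0882) and did not pass the threshold, although the unadjusted 95% interval, 0.08 to 1.14, lay above 0. Kcnip4, the gene of KChIP4 (ENSMUSG00000029088, chromosome 5 from 48389502 to 49524907, minus strand), was at 555 in the knockout and 558 in WT. Its deposited log2 fold change was -0.01 (SE 0.27, adjusted p = 0.991), with a 95% interval from -0.53 to 0.52. Differences inside that interval were compatible with the data, and the smallest detectable difference was not computed.

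Differences between the fold changes of paralogs were computed for the 8 pairs within the KChIP, Kv4 and DPP families, with the errors of a pair taken as independent. They are described without a test. The fold change of Kcnip2 exceeded that of Kcnip4 by 1.59 on the log2 scale (95% interval 0.76 to 2.43) and that of Kcnip3 by 0.98 (0.14 to 1.82). The fold change of Kcnip1 minus that of Kcnip2 was -3.06 (SE 0.37, 95% interval -3.79 to -2.34), a gap that contains the value by which Kcnip1 was chosen. Kcnip3 and Kcnip4 differed by 0.61, with an interval from -0.13 to 1.36 that included 0.

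**Figure D2:**
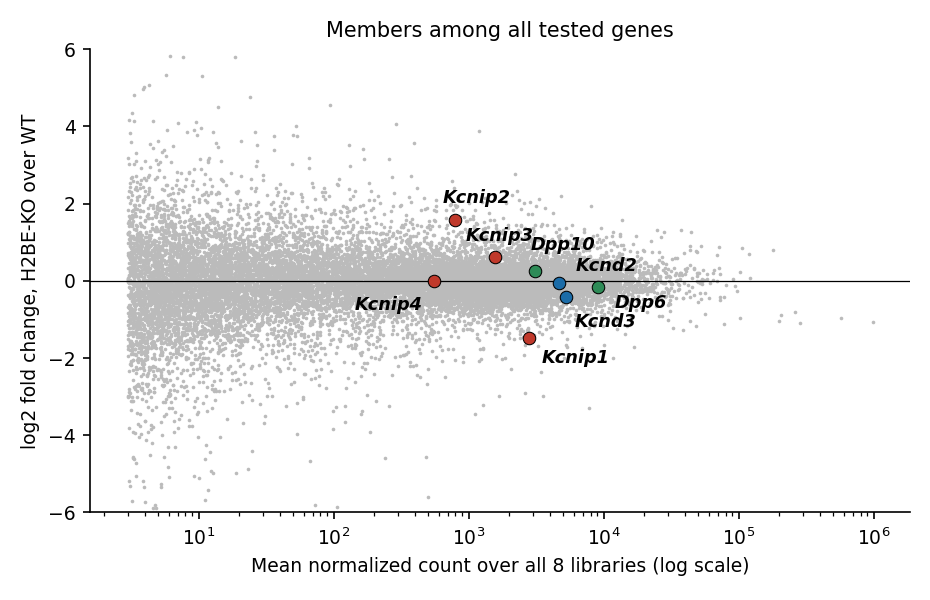
Log2 fold change, H2BE-KO over WT (y axis), against the mean normalized count over all 8 libraries (x axis, log scale) for each tested gene, with the 8 members in colour (blue Kv4 pore, red KChIP, green DPP). Kcnip1 and Kcnip2 lie at the edges of the cloud at their counts and the other members within it, and 12 genes with a log2 fold change below -6 are not drawn.

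The pore genes did not pass the threshold. Kcnd2, the gene of Kv4.2 (ENSMUSG00000060882, chromosome 6 from 21215503 to 21729805, plus strand), the main dendritic Kv4 subunit of pyramidal neurons, had an implied level of 4541 normalized counts in the knockout and 4758 in WT. Its deposited log2 fold change was -0.07 (SE 0.22, adjusted p = 0.863, 95% interval -0.49 to 0.36). Kcnd3, the gene of Kv4.3 (ENSMUSG00000040896, chromosome 3 from 105452330 to 105674002, plus strand), which in hippocampus is prominent in interneurons, was at 4522 in the knockout and 6084 in WT. The authors' deposited table gave it -0.43 (SE 0.19, DESeq2 adjusted p = 0.0968), or 74.3% of the WT level, with an unadjusted interval from -0.81 to -0.05. The fold change of Kcnd2 minus that of Kcnd3 was 0.36, with an interval from -0.21 to 0.93. Kcnd3 lies on the chromosome of the targeted gene, 9.23 Mb from it. The part of that distance in the value was not tested.

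Neither DPP-like subunit gene passed. Dpp6 (ENSMUSG00000061576, chromosome 5 from 26817203 to 27727505, plus strand) was the member with the highest mean count and the smallest error. It had an implied level of 8583 normalized counts in the knockout and 9574 in WT, and a deposited log2 fold change of -0.16 (SE 0.09, adjusted p = 0.239, 95% interval -0.34 to 0.03). A fall to under 78.8% of the WT level lay outside that interval. Dpp10 (ENSMUSG00000036815, chromosome 1 from 123321471 to 124045559, minus strand) was at 3351 in the knockout and 2822 in WT, with a deposited log2 fold change of 0.25 (SE 0.17, adjusted p = 0.322, 95% interval -0.09 to 0.58). The fold change of Dpp6 minus that of Dpp10 was -0.41, with an interval from -0.79 to -0.02 before any adjustment for the 8 pairs.

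The members were well expressed genes whose fold changes carried more error than is usual at their counts. In mean normalized count they ran from 556 for Kcnip4 to 9079 for Dpp6, and all 8 stood above at least 53.2% of the tested genes. In 7 of the 8, Dpp6 being the exception, the SE was above the median SE of genes within 1.5 times of the same mean count. For Kcnip3, 93.0% of such genes had a smaller SE, for Kcnd2 90.1%, for Kcnip4 86.5%, for Kcnd3 85.7%, for Dpp10 77.7% and for Kcnip1 72.6%, against 24.0% for Dpp6.

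Levels were compared between genes per kb of annotated exon, as the mean normalized count over all libraries divided by the union of exons. On this scale Kcnd2 was highest at 902 per kb, followed by Dpp6 (735), Kcnd3 (553), Kcnip1 (453), Kcnip3 (440), Kcnip2 (230), Dpp10 (196) and Kcnip4 (153). Without values per library it cannot be said which neighbours in this order differ beyond their spread. The order depended on the length used. Per kb of the longest protein-coding transcript, an alternative chosen after seeing the data, Dpp6 led at 1923, then Kcnip1 at 1210 and Kcnd2 at 902. For Dpp6 the exon union is 12347 bases and that transcript 4720, and for Kcnip1 they are 6200 and 2322 bases.

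The make-up of the KChIP transcripts differed between the genotypes while their implied sum per kb of exon was nearly level. The sum of the 4 Kcnip genes was 1269 normalized counts per kb in the knockout and 1284 in WT. Kcnip1 made up 18.9% of it in the knockout and 51.9% in WT, and Kcnip2 made up 27.2% in the knockout and 8.93% in WT. Kcnip3 accounted for 41.9% in the knockout and 27.2% in WT, and Kcnip4 for 12.1% in the knockout and 12.0% in WT. Kcnip3 thus had the largest share in the knockout and Kcnip1 in WT. Per kb of the longest coding transcript the shares of Kcnip1 were 31.0% in the knockout and 67.6% in WT, those of Kcnip3 33.5% in the knockout and 17.2% in WT, and the sum was not level, at 2063 in the knockout and 2632 in WT. These shares contain the fall for which Kcnip1 was chosen and have no error of their own.

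**Figure D3:**
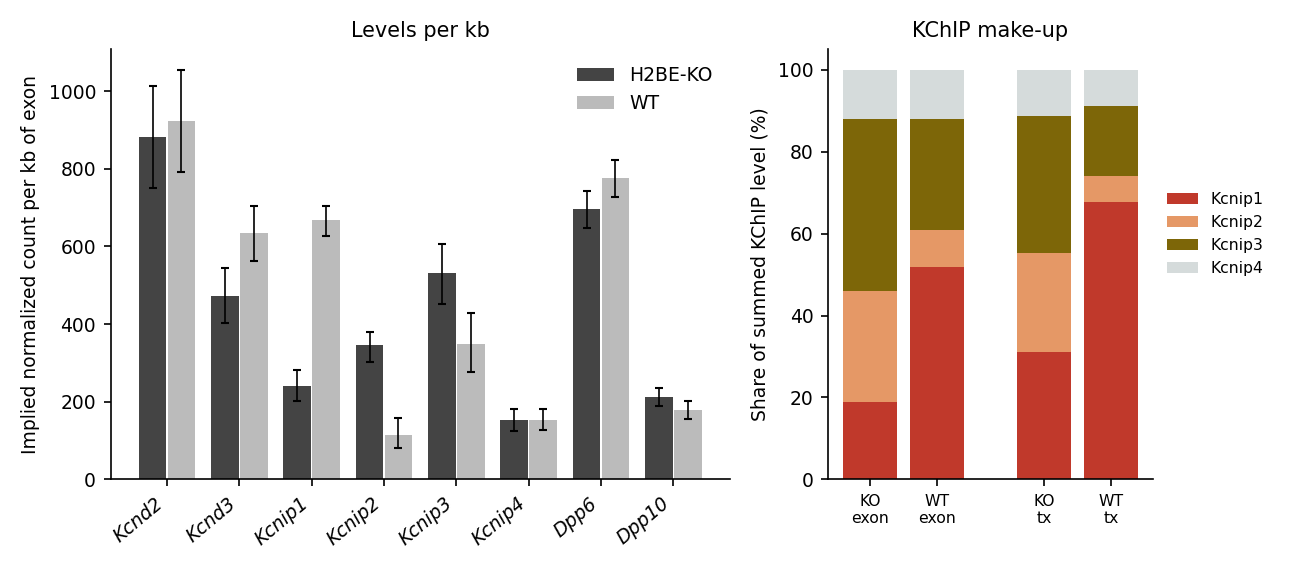
Left, implied normalized count per kb of exon for each member in H2BE-KO (dark) and WT (light); bars start at 0 and error bars show the range allowed by the 95% interval of the fold change alone. Right, share of each Kcnip gene in the summed KChIP level in KO and WT neurons, per kb of exon and per kb of the longest coding transcript (tx). The smaller Kcnip1 share in KO contains, on both scales, the same fall for which Kcnip1 was chosen.

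For the pore, the summed Kv4 level was 1353 per kb of exon in the knockout and 1558 in WT, of which Kcnd2 made up 65.1% in the knockout and 59.3% in WT. The summed DPP level was 907 in the knockout and 954 in WT, of which Dpp6 made up 76.6% in the knockout and 81.3% in WT. The summed KChIP level was 0.938 of the Kv4 level in the knockout and 0.824 in WT, and the DPP level was 0.671 of the Kv4 level in the knockout and 0.612 in WT. On the longest coding transcripts the KChIP to Kv4 ratio pointed the other way, at 1.36 in the knockout and 1.49 in WT, so that no direction of this ratio is given.

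The members differed in locus size and in the CpG content of their promoters. Their genomic spans ran from 24.2 kb for Kcnip2 to 1135 kb for Kcnip4. Starts in RefSeq (GRCm38.p6) were matched for all 8, with 15 promoter windows from 250 bases before to 50 bases after a start. The 15682 windows of tested genes held a median of 19 CpG sites. The 3 windows of Kcnip1 held 7, 16 and 4 CpG sites and the window of Kcnip2 held 18, while those of Kcnd2 (26), Kcnd3 (25) and Dpp10 (21) lay above the median. The 3 windows of Kcnip3 held 8, 4 and 28, the 2 of Kcnip4 held 7 each, and the 3 of Dpp6 held 10, 6 and 16. In all, 11 of the 15 windows lay below the median, a count in which genes with 3 starts weigh more than genes with 1. Neither window of Kcnip4 lies at the outer end of its annotated span, at 49524907. Counts per gene do not tell which start was used.

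Other genes of A-type currents were looked at as lists, and none of the lists was tested as a group. No gene of these lists passed after adjustment with the t distribution, or with the spread of the test statistic taken from all tested genes. The calls given here are those of the deposited DESeq2 test alone, by which 21.8% of all tested genes passed. Of the genes followed here that this test called, 48 were lost with the t distribution and only H2bc21 passed. That loss is thus not particular to these lists. Of the 4 other A-type pore genes, 1 rose, 1 fell and 2 did not pass. The median on the log2 scale was 0.02. Kcnc4, the gene of Kv3.4, was at 1870 normalized counts in the knockout and 1176 in WT (0.67 in the authors' deposited table, SE 0.11, DESeq2 adjusted p = 2.43e-07). Like Kcnd3, Kcnc4 lies on chromosome 3 (from 107438303 to 107459552) with the targeted gene H2bc21 (from 96221119 to 96223738). The part of that position in the value of Kcnc4 was not tested. Of the 8 Kv beta and Kcne auxiliary subunit genes, 6 were tested, of which 1 rose and 1 fell. In the authors' deposited table Kcnab1, the gene of the Kv beta subunit that gives Kv1 channels fast inactivation, was at 0.79 (SE 0.26), and Kcnab2, the gene of a further beta subunit, at -0.52 (SE 0.15).

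Among 15 genes of Kv4 partners and regulators, 4 rose, 3 fell and 8 did not pass. The median on the log2 scale was 0.06. In the authors' deposited table the T-type calcium channel genes Cacna1g (1.11, SE 0.21) and Cacna1h (0.63, SE 0.13) rose; channels of this family can form a complex with Kv4 through KChIP3. Flna, the gene of the actin linker filamin A, which binds Kv4.2, rose by 0.69 (SE 0.18). Dlg1, a scaffold gene, fell (-0.49, SE 0.15). Among 7 neuronal calcium sensor genes, the wider family of the KChIPs, 2 rose, 1 fell and 4 did not pass. Hpca, the gene of hippocalcin, was at 2145 normalized counts in the knockout and 718 in WT (1.58 in the authors' deposited table, SE 0.37), close to the fold change of Kcnip2. Vsnl1, the gene of visinin-like 1, was at 8454 in the knockout and 16935 in WT (0.499 times the WT level, DESeq2 adjusted p = 1.19e-10), and Hpcal4 at 0.41 (SE 0.15). None of the 4 peptidase paralogs of Dpp6 and Dpp10 passed by the deposited DESeq2 test or at an unadjusted p under 0.05 (0 of 4), nor with the t distribution, and Dpp8 and Dpp9 lay at 0.02 and 0.04. Of 4 genes bound by KChIP3 as DREAM, 1 rose and 1 fell, namely Slc8a3 (0.64, SE 0.18), a sodium-calcium exchanger gene, and Crem (-1.25, SE 0.33), a transcription factor gene.

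Markers of some cell types also differed between the genotypes. By the deposited DESeq2 test 40.7% of the GABAergic interneuron markers and 83.3% of the projection neuron markers passed, against 21.8% of all tested genes. The marker lists here and in the next paragraph were chosen with earlier results of these data known, so nothing is read from their shares. A mean count of at least 100 was found in 25 of 27 GABAergic and all 18 projection neuron markers, against 11537 of 18085 tested genes. The share of all tested genes at an unadjusted p under 0.05 was not computed, so unadjusted counts have no such background. These are bulk samples, in which fewer cells of a type and less RNA per cell cannot be told apart. Of 27 GABAergic interneuron markers, 11 fell, none rose and 16 did not pass by the deposited DESeq2 test. The median on the log2 scale was -0.91, in a range from -2.89 to 1.56. At an unadjusted p under 0.05, 17 passed, and with the t distribution none passed after adjustment. Their summed implied level was 132391 normalized counts in the knockout and 222117 in WT, none was at 0 and all had a mean of at least 10. The 6 with the smallest adjusted p ran from -2.89 for Npy, the gene of neuropeptide Y, to -1.02 for Gad1, the gene of a GABA-synthesizing enzyme, and Kcnip1 was at -1.48. Between them lay Maf at -1.42, the vesicular GABA transporter gene Slc32a1 at -1.32, the transcription factor gene Lhx6 at -1.26 and Nxph1 at -1.14. Of the other markers, 6 had values above 0 and did not pass, namely Vip (1.56), Calb2 (0.79), Satb1 (0.59), Ndnf (0.49), Adarb2 (0.32) and Prox1 (0.18), which were named after their values were seen. Of 18 projection neuron markers, 13 rose, 2 fell and 3 did not pass, with a median of 0.93 and a range from -0.82 to 2.76. Their summed implied level was 77400 in the knockout and 44053 in WT. The 6 with the smallest adjusted p ran from 0.90 for Plxnd1 to 2.76 for Ldb2, and Kcnip2 was at 1.59. Between them lay Lmo3 at 0.97, the transcription factor genes Tbr1 at 1.90 and Rorb at 1.94, and Etv1 at 1.98. The 2 that fell were the upper-layer transcription factor genes Cux1 (-0.49, SE 0.16) and Cux2 (-0.82, SE 0.31), also named after their values were seen. After adjustment, none of the 18 passed with the t distribution and 3 passed with the spread taken from all tested genes. The part of these markers in the values of Kcnip1 and Kcnip2 was not tested.

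General neuron markers fitted the labelled cell type, with mean counts of 2650 for Rbfox3, the gene of NeuN, and 49136 for Tubb3. Of 10 such markers 3 rose, 1 fell and 6 did not pass, so that 40% passed, against 21.8% of all tested genes. The median on the log2 scale was -0.08, and the summed implied level was 421878 in the knockout and 373163 in WT. Of 10 astrocyte markers 3 rose and none fell, with a sum of 24584 in the knockout and 13159 in WT. At an unadjusted p under 0.05, 6 of these passed. Of 8 tested oligodendrocyte lineage markers 2 rose and none fell, and 3 passed at an unadjusted p under 0.05. By the deposited test 30% of the astrocyte and 25% of the oligodendrocyte lineage markers passed. Both shares were near that of all tested genes, so nothing is read from these 2 counts. Microglia markers were lower in 6 of 10 tested cases (60%) and endothelial and mural markers in 4 of 8 (50%), with none higher in either. The 4 called endothelial and mural genes were Pdgfrb, Tagln, Acta2 and Cldn5, and the mean of Cldn5 was only 3.00. The endothelial genes Pecam1, Flt1 and Kdr did not pass. On genes with a mean of at least 100, 2 calls remained in the endothelial and mural list and 1 in the microglia list. The microglia markers summed to 242 in the knockout and 1090 in WT, and 5 of 12 had a mean under 10. Most of that sum was Cd68, a lysosomal gene of phagocytes, at 171 in the knockout and 835 in WT. With the t distribution no marker of these lists passed after adjustment. The part of these cell types in the members' values was not tested.

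**Figure D4:**
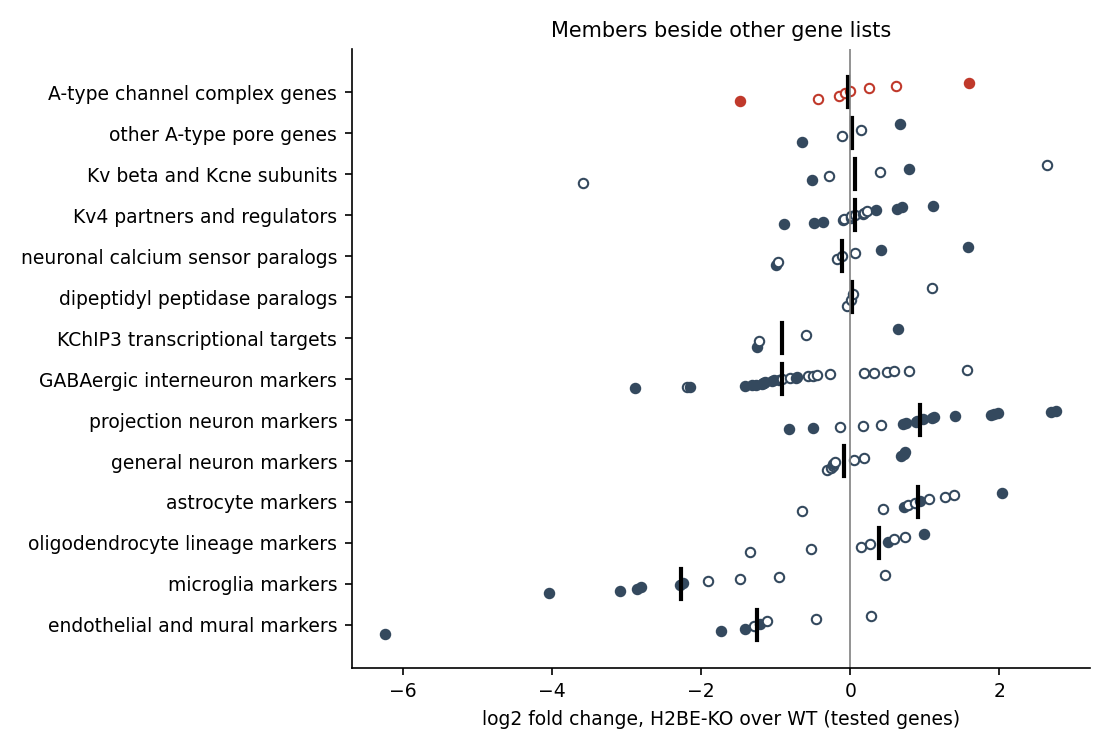
Log2 fold changes, H2BE-KO over WT (x axis), of the tested genes in each list, with the A-type channel genes on top in red. Filled points passed at 0.05 after the authors' adjustment and black bars are medians, which lie at -0.91 for GABAergic interneuron markers and 0.93 for projection neuron markers, against -0.04 for the A-type channel genes.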

How the data were processed

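The sources were a deposited table of the authors' comparison of 4 KO and 4 WT libraries and the labels. Reads were mapped to mm10 and compared with DESeq2 (DESeq is also named), without versions, per the submitters' processing notes; no aligner, counting tool or annotation is given in the sources used here. The deposited signal is the mean of counts divided by size factors over all libraries, per the file headers. Fold changes and their SE were deposited as log2 values. The authors' score is the Wald statistic, checked to equal fold change over SE (largest gap 2.86e-07). The deposited p-value and adjusted p were kept, and the adjustment was checked to be Benjamini-Hochberg over 18085 genes (largest relative gap 0.757%). The other 8144 genes have no adjusted p, kept as missing.

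Signs were turned to KO over WT from the targeted gene. Implied group levels assume that the fitted ratio is the ratio of the 2 group means. No count model was run. Depth per library is unknown, so p-values rest on the deposited fit. GENCODE M21 (GRCm38) matched 26039 rows. Members and lists were chosen with earlier results of these data known. All members and the targeted gene were named, and in each list up to 6 called genes by smallest adjusted p (where no gene was called, up to 2 of highest mean count); not every such gene of the glial and vascular lists is written out, and genes that overlap a member were added. Some genes the rule names are not reported here. Kcne5 was matched as Kcne1l. Readjustment code was tested on simulated data. Python 3.11.15, numpy 2.4.6, scipy 1.17.1, pandas 2.3.3, Biopython 1.88, MAFFT 7.526 and matplotlib 3.10.9 were used. Alternatives are given in the closing section.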

Additional observations from a re-analysis of the deposited data

How the results depend on the processing

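The members past the threshold were Kcnip2 and Kcnip1, and Kcnip1 was chosen by its fall in the same table. The part of Kcnip1 in each count below rests on the value it was chosen by and is no sign of stability. Over all tested genes 21.8% passed in the deposited test, and the share under each alternative was not computed. Nothing is read from these counts. The count of 2 was also found at a threshold of 0.01, on genes with a mean count of at least 100, over every gene with a p, after centring and with a minimum log2 fold of 0.5. The count was 4 at a threshold of 0.10 (adding Kcnip3 and Kcnd3), 1 without Kcnip1 (Kcnip2), 1 with the empirical null (Kcnip1, with Kcnip2 lost) and 0 with the t distribution of 6 degrees of freedom, where 2 members passed at an unadjusted p under 0.05. Over these alternatives the adjusted p of Kcnip2 ran from 2.79e-05 to 0.356; the wider null explains the losses by construction. H2bc21 passed in each. The members' median log2 fold change was -0.04 as deposited and -0.01 both without Kcnip1 and after centring, and their weighted mean was -0.21. The deposited, centred and weighted values include Kcnip1, chosen by its fall, so their shared sign is no sign of stability. Without Kcnip1 the median was the value of Kcnip4. Centring turned Kcnip4 to 0.0189. The summed KChIP log2 difference moved to -0.35 per kb of the longest coding transcript (chosen after seeing the data), against -0.02 per kb of exon, through the lengths used. For the 13 other lists, 72 counts under these alternatives were within 1.5 times of the reported count and 32 were not. No list had a call with the t distribution, and with the empirical null the projection neuron markers had 3 calls and every other list 0. With the t distribution Npy, Ldb2, Etv1 and Vsnl1 all had the same adjusted p of 0.0645, and H2bc21 had 0.0344. Of the called genes followed here, only H2bc21 passed. The absence of calls is therefore not read as a result about these lists or Kcnip2. No paired analysis was possible because the table holds no values per library; leaving out each replicate was not run for the same reason.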
